A study of Mus musculus with 31 samples.

Results

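Fibroblasts of masseter muscle (MM), a chewing muscle, were followed through 9 genes that mark fibroblasts and fibro-adipogenic progenitors (FAPs): Pdgfra, Pdgfrb, Dpt, Cd34, Ly6a, Pi16, Dpp4, Fap and Thy1. They are taken by name, and all 9 were found among the 22609 genes listed for each of 31 mice. All mice were adult wild-type C57BL/6J males, and each gave 1 bulk RNA library from the dissected MM, without its tendons as far as possible. MM was injected with complete Freund's adjuvant (CFA, an oil emulsion with killed mycobacteria), with collagenase type 2 (Col, a crude enzyme preparation that digests collagen) at 0.2U or 10U, or with vehicle, which was PBS. Groups were CFA vehicle (n = 3), 1d post-CFA (n = 3), 5d post-CFA (n = 3), Col vehicle (n = 3), 0.2U Col with the title 1C (n = 4), 0.2U Col with the title RPC (n = 4), and 2d (n = 4), 6d (n = 3) and 12d (n = 4) post-Col (10U). Days are those of the sample titles, and the study's text gives other days for the earliest and the latest 10U group. The titles do not give the day of 1C and RPC, and the day on which the vehicle-treated MM was collected is not given. The study set these groups side by side to ask how MM changes while hypersensitivity after an injection is present and after it has resolved.

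FAPs are the resident mesenchymal progenitors of skeletal muscle. They lie between the fibers, carry the PDGF receptor alpha at their surface, support muscle stem cells after injury, and can give rise to matrix-producing fibroblasts or to fat cells. Pdgfra and Pdgfrb encode receptor tyrosine kinases for platelet-derived growth factors, the latter also being a marker of pericytes and smooth muscle cells around vessels. Dpt encodes dermatopontin, a small matrix protein that binds collagen fibrils and decorin, and Pi16 encodes a member of the peptidase inhibitor family that marks fibroblasts found across many tissues. Cd34 and Ly6a (Sca-1) encode surface proteins that FAPs share with endothelial and blood-forming cells. Dpp4 and Fap encode related serine peptidases that cut after proline, Dpp4 being present on many epithelia and T cells and Fap on activated fibroblasts. Thy1 encodes a GPI-anchored surface protein of fibroblasts, T cells and neurons.

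Promoters are shown for Dpp4, Dpt and Pi16, which are among the members that varied most between mice and for which a promoter with a motif match was at hand. RefSeq (GRCm38.p6) gave a promoter for 5 of the 9 genes. Each sequence is the 250 bases before the annotated start, 5′ to 3′ on the strand of the gene, at chr2:62412232-62412481 (minus) for Dpp4, chr1:164796413-164796662 (plus) for Dpt and chr17:29318632-29318881 (plus) for Pi16. Capitals mark motif matches.
Dpp4: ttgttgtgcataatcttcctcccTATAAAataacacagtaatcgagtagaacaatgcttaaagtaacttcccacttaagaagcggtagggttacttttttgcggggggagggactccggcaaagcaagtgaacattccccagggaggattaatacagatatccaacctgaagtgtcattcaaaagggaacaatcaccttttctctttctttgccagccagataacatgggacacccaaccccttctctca
Dpt: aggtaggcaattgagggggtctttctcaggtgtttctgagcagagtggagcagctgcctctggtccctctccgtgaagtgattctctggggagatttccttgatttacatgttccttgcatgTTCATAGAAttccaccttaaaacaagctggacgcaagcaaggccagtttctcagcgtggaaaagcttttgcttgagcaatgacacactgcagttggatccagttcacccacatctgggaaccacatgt
Pi16: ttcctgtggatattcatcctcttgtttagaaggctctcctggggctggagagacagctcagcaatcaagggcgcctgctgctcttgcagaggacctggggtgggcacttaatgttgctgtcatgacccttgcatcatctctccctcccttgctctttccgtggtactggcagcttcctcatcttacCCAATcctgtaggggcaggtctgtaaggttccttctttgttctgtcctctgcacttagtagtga
In Dpp4 the capitals mark TATAAA, the letters of a TATA box, at 227 to 222 bases before the start. In Dpt they mark a match of TTCNNNGAA, the interferon-gamma-activated site, which reads alike on both strands, at 128 to 120 bases. In Pi16 they mark a CCAAT box at 64 to 60 bases. These 3 motifs were searched on both strands, no matches overlapped, and the promoters of Pdgfra and Cd34 held none. Of 32841 mouse promoters of the same length, 7.02% held the motif seen in Dpt, 12.4% that seen in Dpp4 and 33.9% that seen in Pi16, so a match describes the letters and not a bound factor.

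The 9 genes lie on 7 autosomes and are all annotated as protein-coding (GENCODE vM1, build mm9). Pdgfra spans chr5:75548316-75594229, Pdgfrb chr18:61204804-61244715, Dpt chr1:166726863-166754397, Cd34 chr1:196765015-196787486, Pi16 chr17:29455822-29466358 and Thy1 chr9:43851467-43856662, all on the plus strand. Ly6a spans chr15:74825308-74828064, Dpp4 chr2:62168130-62250288 and Fap chr2:62339000-62412132, all on the minus strand. Dpp4 and Fap lie on the same strand with 88711 bp between them. Counts of Ly6a are less certain than the others, because 4.42% of its 50-base windows also occur in transcripts of its paralogs Ly6c2 or Ly6i. A non-coding gene overlaps Cd34 (Gm16897) and Dpp4 (Gm13561) on the opposite strand, and Mtch1 lies on the opposite strand within 5000 bp of Pi16.

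Each mouse had between 14843778 and 29076671 reads assigned to genes (median 20834472), and no member had fewer than 108 counts in any mouse. In bulk tissue, fewer cells of a type and less RNA per cell cannot be told apart. Counting may also differ between 10U and Col vehicle mice, as described with the processing. Myofiber genes, the check of the labelled tissue, summed to between 101758 and 149191 CPM (counts scaled to a common library size, with the TMM factors of edgeR, which correct for composition) in the Col vehicle mice. However, 8 salivary gland markers, such as amylase (Amy1), summed to over 1000 CPM in 16 of 31 mice and ranged from 10.6 to 141338 CPM. All 3 mice at 5d post-CFA, all 4 RPC mice and 2 of 3 Col vehicle mice were above that limit, whereas all mice at 6d and 12d post-Col (10U) were below it. Values for these markers are given beside the results they move with. T cells also carry Thy1 and Dpp4, and 8 T cell markers summed to between 0.409 and 11.5 CPM over the 31 mice.

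In the 6 vehicle-treated mice, the members covered a wide range of levels per transcript length. In RPKM (CPM without TMM factors, divided by exon length in kilobases), Ly6a was the highest at 132 ± 52.1 (SD, n = 6), and Cd34 (63.4 ± 21.1) and Dpt (49.7 ± 16.5) came next. Pdgfrb (19.1 ± 5.04), Thy1 (15.8 ± 5.77) and Pi16 (15.4 ± 5.74) were within 1 SD of each other. Pdgfra was at 8.56 ± 4.17, Fap at 4.08 ± 3.40 and Dpp4 at 2.38 ± 1.51 RPKM. All members thus exceeded 1 RPKM on average, and the peptidases were the lowest. No member was called, that is, passed an adjusted p of 0.05, between the Col vehicle and CFA vehicle mice (quasi-likelihood test of edgeR, adjusted p = 1 for each of the 9 by the Benjamini-Hochberg method), where 6 of 14070 genes (0.0426%) passed. No member had an unadjusted p under 0.05 there, DESeq2 called 0, and the widest log2 difference was that of Fap, 0.66 with an SE of 0.82.

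**Figure D1:**
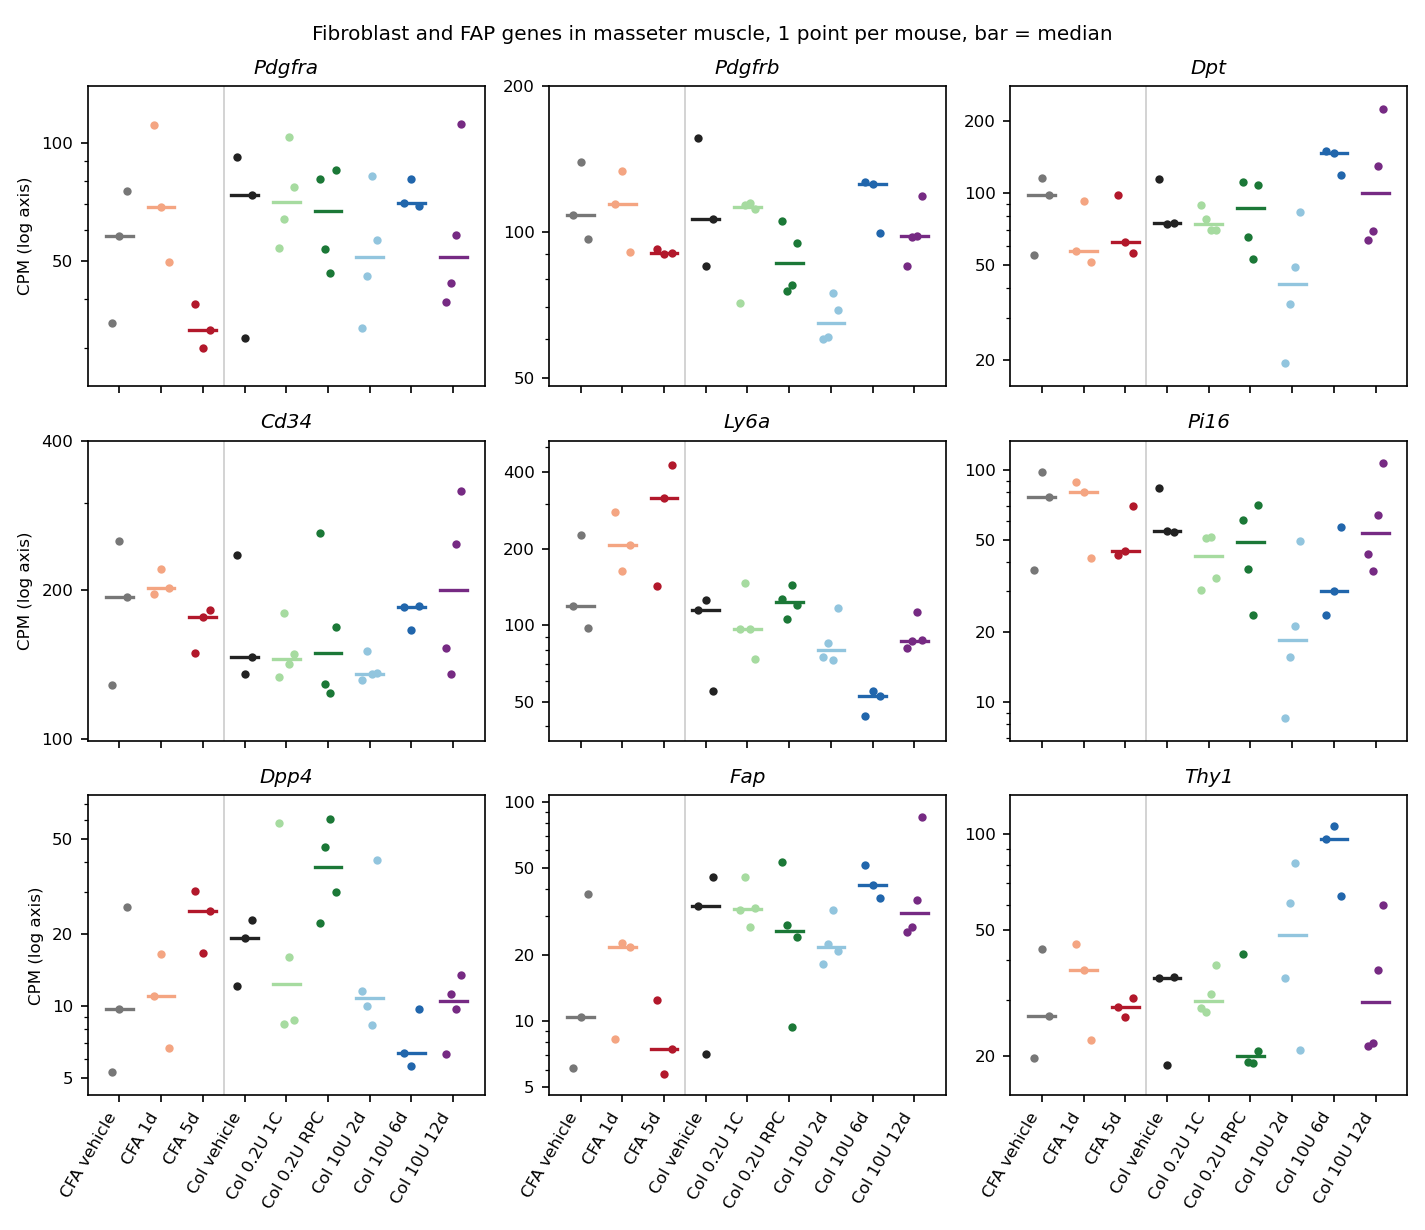
TMM-scaled CPM of each of the 9 genes (1 panel per gene, log axis) in each of 31 mice, by group; points are mice and horizontal bars are group medians. By group median, Thy1 is highest and Ly6a and Dpp4 are lowest at 6d post-Col (10U), while Cd34 stays within 124 to 316 CPM over all mice.

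Over all 31 mice, Fap varied most, with its highest CPM 14.9 times its lowest, followed by Pi16 (12.6 times), Dpp4 (11.6 times) and Dpt (11.5 times). Cd34 (2.54 times) and Pdgfrb (2.60 times) varied least. For Pdgfra, Dpt, Cd34, Pi16 and Fap the highest mouse was replicate 4 at 12d post-Col (10U). When the 9 groups were ordered by the median CPM of each gene, neighbouring groups overlapped in 68 of 72 steps. The 4 steps without overlap were those from the lowest to the next group for Pdgfra (5d post-CFA), Pdgfrb (2d post-Col, 10U) and Ly6a (6d post-Col, 10U), and the step of Ly6a from the RPC group to 1d post-CFA. Each sets apart only these neighbours: Pdgfra at 5d post-CFA, at 30.03 to 38.9 CPM, and Pdgfrb at 2d, at 60.1 to 74.8 CPM, overlapped with groups further up, whereas all 6d mice were below all others for Ly6a.

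CFA was followed by no change of a FAP gene that passed the test. At 1d post-CFA, 0 of 9 members were called with edgeR, 0 had an unadjusted p under 0.05 and DESeq2 also called 0, beside 0% of 13944 genes with edgeR. Ly6a was at 279, 163 and 207 CPM at 1d post-CFA and at 119, 226 and 97.8 CPM in CFA vehicle mice. These groups overlapped, with a log2 fold change of 0.56 (SE 0.35, adjusted p = 0.924, edgeR). For the other 8 members the log2 fold change lay between -0.42 (Dpt) and 0.43 (Pdgfra), in both directions.

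At 5d post-CFA, 0 of 9 members were called, beside 1.11% of 14026 genes, and DESeq2 called 0. Ly6a, whose product is also a known interferon-responsive surface antigen, was at 142, 318 and 425 CPM. The first of these mice lay within the range of CFA vehicle mice, and the log2 fold change of 1.09 (SE 0.45) had an adjusted p of 0.339 with edgeR; this was the only member with an unadjusted p under 0.05. Pdgfrb was at 92.3, 90.1 and 90.4 CPM, below all CFA vehicle mice (108, 139.5 and 96.5 CPM). Its log2 fold change was small, -0.26 (SE 0.15, adjusted p = 0.54, edgeR), and 19.9% of all tested genes had groups that did not overlap. The salivary markers summed to between 51647 and 71002 CPM at 5d post-CFA, and in a fit with their score as a covariate, added after the data had been seen, the log2 fold change of Ly6a was 1.03 and that of Pdgfrb 0.01. Dpp4 had a log2 fold change of 0.86 (SE 0.57, adjusted p = 0.584, edgeR), -0.13 with the covariate and 1.80 (adjusted p = 0.00589, edgeR, beside 15.6% of genes) without CFA vehicle replicate 3, whose salivary markers summed to 7931 CPM.

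Between 1d and 5d post-CFA, Pdgfra and Dpp4 moved most. Pdgfra, the FAP receptor, was at 111, 68.5 and 49.9 CPM at 1d and at 38.9, 30.03 and 33.4 CPM at 5d. The groups did not overlap, as for 26.9% of all tested genes, and the log2 fold change was -1.10 (SE 0.29, adjusted p = 0.0787, edgeR). Dpp4 was at 11.0, 16.5 and 6.68 CPM at 1d and at 30.5, 16.7 and 25.0 CPM at 5d, again without overlap. Its log2 fold change was 1.15 (SE 0.36, adjusted p = 0.13, edgeR). Neither was called, beside 5.84% of 14046 genes, whereas DESeq2 called both (adjusted p = 0.00705 for Pdgfra and 0.0327 for Dpp4), beside 10.5% of genes with that tool. With edgeR, Pdgfra was called without 1d replicate 3 (-1.36, adjusted p = 0.0462, beside 3.28% of genes) and Dpp4 without 1d replicate 2 (1.46, adjusted p = 0.0377, beside 9.63%). Salivary markers summed to between 57.3 and 4196 CPM at 1d, and with the covariate the difference was -0.94 for Pdgfra and -0.25 for Dpp4.

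Low dose (0.2U) Col was likewise followed by no called member. In the 1C group, 0 of 9 members were called beside 0% of 14493 genes, and DESeq2 called 0 members. Pi16 was at 30.4, 50.8, 51.6 and 34.05 CPM in 1C and at 83.4, 54.7 and 54.2 CPM in Col vehicle mice. All 1C mice were below all vehicle mice, as for 9.76% of all tested genes in either direction, with a log2 fold change of -0.60 (SE 0.24, adjusted p = 0.377, edgeR). It was the only member there with an unadjusted p under 0.05. Salivary markers summed to between 92.1 and 13599 CPM in 1C, and with the covariate the log2 fold change of Pi16 was -0.63.

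In the RPC group, 0 of 9 members were called beside 0% of 14269 genes, and DESeq2 called 0 members. Dpp4 was at 22.4, 46.5, 61.1 and 30.2 CPM in RPC and at 12.1, 19.3 and 22.9 CPM in Col vehicle mice. Only 1 RPC mouse overlapped with the vehicle range, and the log2 fold change was 1.18 (SE 0.39, adjusted p = 0.299, edgeR), the sole member with an unadjusted p under 0.05. Salivary markers summed to between 11715 and 141338 CPM in the RPC mice, and with the covariate the log2 fold change of Dpp4 was 0.50. The other 8 members had log2 fold changes of between -0.36 (Pi16) and 0.39 (Ly6a). Of 6 adipogenic genes, for the fat cells that FAPs can give rise to, edgeR called 0 in both 0.2U groups. In each group 5 had an unadjusted p under 0.05. DESeq2 called 1 higher in 1C, beside 360 higher and 159 lower of 14493 genes. In RPC it called 3 higher, beside 189 higher and 254 lower of 14269 genes. Which cells gave these values was not tested.

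At 2d post-Col (10U), none of the members passed edgeR's test. With TMM scaling, Pdgfrb and Pi16 were nonetheless lower in every treated mouse than in every vehicle mouse. Beside 0 of 9 members, 319 of 14373 genes (2.22%) were called, and 23.9% of genes had groups without overlap. Pdgfrb was at 60.1, 60.8, 74.8 and 68.9 CPM at 2d and at 156, 85.1 and 106 CPM in Col vehicle mice. The groups were apart, with a log2 fold change of -0.78 (SE 0.22, adjusted p = 0.0699, edgeR). Pi16 was at 8.51, 15.6, 21.3 and 49.5 CPM at 2d. The lowest vehicle mouse was at 54.2 CPM, and the log2 fold change was -1.39 (SE 0.53, adjusted p = 0.118, edgeR). DESeq2 called both genes (adjusted p = 0.0129 for Pdgfrb and 0.0419 for Pi16), as did the fit with the salivary covariate (0.00283 and 0.0326, edgeR). These 2 of 9 members stood beside 23.1% of all genes called by DESeq2 and 31% in the covariate fit.

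Dpt, the collagen-binding matrix protein, was at 19.5, 34.3, 48.9 and 83.6 CPM at 2d and at 114, 74.2 and 75.4 CPM in Col vehicle mice. Replicate 4 at 2d lay within the vehicle range, and the log2 fold change was -0.88 (SE 0.45, adjusted p = 0.203, edgeR). Without that mouse, edgeR called Dpt (-1.35, adjusted p = 0.0205), Pdgfrb (-0.82, adjusted p = 0.0305) and Pi16 (-2.07, adjusted p = 0.00486), beside 36.3% of all genes. The same mouse had the highest Dpp4 of its group and 62069 CPM of salivary markers, against 41.2 to 35227 CPM in the other 3. Thy1 was at 35.3, 60.6, 81.1 and 20.9 CPM, overlapping with vehicle mice (log2 fold change 0.74, SE 0.45, adjusted p = 0.28, edgeR). Mural cell markers, whose cells also carry Pdgfrb, summed to 445 to 747 CPM at 2d and to 802 to 1109 CPM in Col vehicle mice; their part in the Pdgfrb values was not tested. Of 7 mural markers edgeR called 0 at 2d, with 6 at an unadjusted p under 0.05, and DESeq2 called 4 lower.

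At 6d post-Col (10U), the members went separate ways: Thy1 rose 2.97-fold, while Dpp4 fell 2.52-fold and Ly6a fell 1.94-fold. These 3 of 9 members were called, 1 higher and 2 lower, beside 3900 of 14281 genes (27.3%), of which 14% were higher and 13.3% lower. The share of members called was therefore near that of all genes. Thy1 and Dpp4 also met the study's DEG thresholds (adjusted p under 0.05, fold change over 2, RPKM over 1), as did 15.5% of tested genes. They were applied here to edgeR's adjusted p and the larger group mean RPKM, whereas the study used DESeq2.

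Thy1 was at 96.5, 106 and 64.05 CPM at 6d and at 35.2, 18.7 and 35.4 CPM in Col vehicle mice. All treated mice were above all vehicle mice, with a log2 fold change of 1.57 (SE 0.30, adjusted p = 0.0123, edgeR). Dpp4 was at 6.38, 5.62 and 9.69 CPM at 6d, below every vehicle mouse (12.1, 19.3 and 22.9 CPM). Its log2 fold change was -1.33 (SE 0.32, adjusted p = 0.0239, edgeR). Ly6a was at 43.9, 55.01 and 52.7 CPM at 6d and at 115, 125 and 55.06 CPM in vehicle mice. The highest treated and the lowest vehicle mouse were nearly equal, and the log2 fold change was -0.95 (SE 0.29, adjusted p = 0.045, edgeR).

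Dpt was higher in all treated mice, at 149.6, 148 and 119 CPM against 114, 74.2 and 75.4 CPM. It stood just outside the threshold, with a log2 fold change of 0.66 (SE 0.21, adjusted p = 0.0506, edgeR), and DESeq2 called it (adjusted p = 0.0218), beside 35.6% of all genes. Pi16, at 23.6, 30.1 and 56.9 CPM, reached into the vehicle range (log2 fold change -0.79, SE 0.34, adjusted p = 0.111, edgeR). Groups of 4 members, namely Thy1, Dpp4, Ly6a and Dpt, did not overlap, beside 47% of all tested genes. Fap was at 51.3, 41.6 and 36.2 CPM against 33.3, 7.05 and 45.1 CPM in vehicle mice, where replicate 2 was far below the others (log2 fold change 0.58, SE 0.55, adjusted p = 0.446, edgeR).

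Both PDGF receptors and Cd34 were near vehicle levels at 6d, though the intervals leave room for moderate changes. The log2 fold change was 0.16 for Pdgfra, with an interval of 1.96 SE from -0.52 to 0.83. That of Pdgfrb was 0.02 (-0.45 to 0.49) and that of Cd34 0.06 (-0.40 to 0.51).

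The 3 calls at 6d were sensitive to the mice behind them. Without replicate 1 or replicate 2 at 6d, 0 members were called, with adjusted p (edgeR) of 0.0502 and 0.053 for Thy1 and 0.092 and 0.103 for Dpp4, beside 7.27% and 5.83% of all genes. Ly6a was also lost without replicate 3 at 6d (0.107) and without Col vehicle replicate 1 (0.119) or 2 (0.104). Their direction held throughout, with log2 fold changes of 1.31 to 1.77 for Thy1, -1.59 to -1.13 for Dpp4 and -1.25 to -0.76 for Ly6a. Conversely, Dpt was called without Col vehicle replicate 1 (0.87, adjusted p = 0.0345, edgeR, beside 14.7% of genes) and Pi16 without 6d replicate 3 (-1.24, adjusted p = 0.0319, edgeR, beside 14.3%). With the salivary score as a covariate, 0 members were called, and the log2 fold change was 1.03 for Thy1, -0.99 for Ly6a and -0.12 for Dpp4 (adjusted p = 0.104, 0.0766 and 0.904, edgeR), beside 21.7% of genes called. Among mice under 1000 CPM of salivary markers, which left 1 Col vehicle mouse that was assumed to vary like the others, Ly6a (log2 fold change -1.17, adjusted p = 0.0134, edgeR) and Thy1 (1.35, adjusted p = 0.0285, edgeR) were called, whereas Dpp4 was not (-0.73, adjusted p = 0.145, edgeR), beside 32% of genes. Without TMM scaling, the median log2 ratio of all genes shifted by 0.51 at 6d and by 0.35 at 2d. Signs of Thy1 (2.07), Dpp4 (-0.81) and Ly6a (-0.37) were the same on that scale. However, Dpp4 (up to 11.9 CPM at 6d, lowest vehicle mouse 11.1) and Ly6a (up to 74.0, lowest vehicle mouse 57.1) overlapped with vehicle mice there. Pdgfrb (up to 100.7, lowest vehicle mouse 60.7) and Pi16 (up to 47.9, lowest vehicle mouse 39.1) did so at 2d. At 2d the values of Pdgfra (0.07), Cd34 (0.05), Ly6a (0.24), Dpp4 (0.23) and Fap (0.01) were above 0 without TMM while below the shift of all genes.

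**Figure D2:**
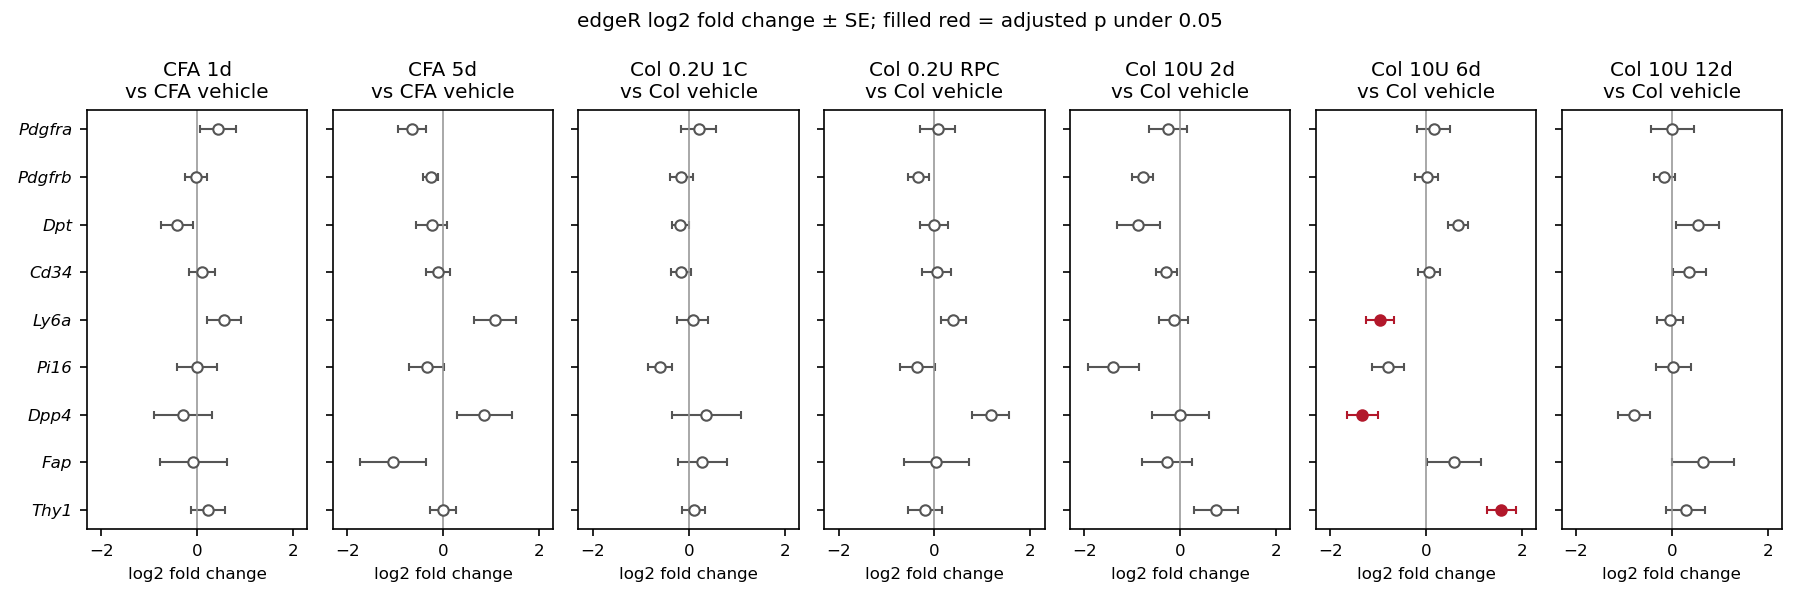
Log2 fold change of the 9 genes (rows) of each of the 7 treated groups against its own vehicle group (edgeR with TMM); lines span 1 SE to either side and filled points have an adjusted p under 0.05. The only filled points against vehicle are Thy1 (1.57), Dpp4 (-1.33) and Ly6a (-0.95) at 6d post-Col (10U).

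At 12d post-Col (10U), 0 of 9 members were called against Col vehicle, beside 1.23% of 14176 genes, and DESeq2 called 0 members. Dpp4 was at 6.31, 11.2, 9.69 and 13.5 CPM, with the highest mouse inside the vehicle range (log2 fold change -0.79, SE 0.32, adjusted p = 0.267, edgeR), the only member with an unadjusted p under 0.05. Dpt was at 63.8, 69.4, 130.2 and 225 CPM and thus spread on both sides of the vehicle mice (log2 fold change 0.54, SE 0.45, adjusted p = 0.562, edgeR). Fap was at 25.5, 26.8, 35.5 and 85.3 CPM, with 3 mice inside and 1 above the vehicle range (33.3, 7.05 and 45.1 CPM).

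Steps between the 10U time points showed which members moved within the course. From 2d to 6d, Pdgfrb rose from a mean of 66.2 to 117 CPM (log2 fold change 0.81, SE 0.15, adjusted p = 0.021, edgeR). Fap rose from 18.2, 22.4, 32.2 and 20.9 CPM to 51.3, 41.6 and 36.2 CPM without overlap (log2 fold change 0.86, SE 0.21, adjusted p = 0.0479, edgeR). These 2 of 9 members were called beside 8.73% of 14513 genes. Dpt had the largest step, from a mean of 46.6 to 139 CPM, but a wider spread (log2 fold change 1.55, SE 0.44, adjusted p = 0.0665, edgeR). Cd34, Dpt, Fap and Pdgfrb were higher in every mouse at 6d than in every mouse at 2d, and Ly6a was lower, beside 23.7% of genes with groups apart. Without 2d replicate 1 or 2 or 6d replicate 1 or 2, 0 members were called, although the log2 fold change of Pdgfrb stayed between 0.75 and 0.93 and that of Fap between 0.74 and 1.07. Without 2d replicate 4, Dpt, Fap, Ly6a, Pdgfrb and Pi16 were called, beside 28.8% of all genes. With the salivary covariate 0 members were called, beside 2.4% of genes.

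From 6d to 12d, Ly6a and Thy1 moved in the opposite direction to that seen at 6d against vehicle, a comparison that shares the 6d mice. Ly6a rose from 43.9, 55.01 and 52.7 CPM to 81.4, 86.2, 113 and 87.6 CPM (log2 fold change 0.88, SE 0.15, adjusted p = 0.0134, edgeR). Thy1 fell to 21.4, 22.0, 37.1 and 59.7 CPM (log2 fold change -1.32, SE 0.37, adjusted p = 0.0383, edgeR). Both changes were without overlap between groups, as for 36.5% of genes, and 26.4% of 14344 genes were called. Dpp4 was not called, with a log2 fold change of 0.51 (SE 0.30, adjusted p = 0.214, edgeR). All mice at 6d and 12d had fewer than 1000 CPM of salivary markers, but the groups still differed in them. The markers summed to between 10.57 and 31.81 CPM at 6d and to between 31.96 and 614 CPM at 12d, without overlap. Amy1 (log2 fold change 2.15, adjusted p = 0.042, edgeR) and Pip (10.8, adjusted p = 0.044, edgeR) were called higher at 12d. Pip, at 0 to 0.167 CPM at 6d, passed the count filter only through 12d mice, so its call could only be higher. The limit of 1000 CPM therefore does not set the calls of Ly6a and Thy1 apart from salivary signal. Ly6a kept its call without any single mouse except 6d replicate 2 (0.92, adjusted p = 0.0547, edgeR). Thy1 kept it only without 12d replicate 4 (-1.74, adjusted p = 0.00129, edgeR), where Pdgfra and Fap were called lower as well beside 54.2% of all genes, and otherwise had adjusted p of up to 0.141.

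Whether CFA and 10U Col changed a member differently was tested as an interaction. For 5d post-CFA and 6d post-Col (10U), the change of Ly6a after CFA exceeded that after Col by 2.05 on the log2 scale (SE 0.59, adjusted p = 0.0478, edgeR), with log2 fold changes of 1.09 after CFA, which was not called by itself, and -0.95 after Col. For Thy1 the difference was -1.56 (SE 0.43, adjusted p = 0.0415, edgeR), with 0.01 after CFA and 1.57 after Col. Dpp4 differed by 2.20 (SE 0.74, adjusted p = 0.0762, edgeR) and was not called. Of 14892 genes, 11.3% were called. Leaving out single mice put the difference of Ly6a between 1.57 and 2.36 (called in 3 of 12 cases) and that of Thy1 between -1.88 and -1.31 (called in 5 of 12). Days differ between the 2 treatments, and 5d post-CFA mice had high and 6d post-Col mice low salivary markers, so treatment, day and salivary signal cannot be told apart here. With the covariate the difference was 2.02 for Ly6a, -0.56 for Thy1 and -0.014 for Dpp4, none of them called. At the early times, 1d post-CFA and 2d post-Col (10U), 0 members were called beside 0.0946% of 14794 genes, DESeq2 called 0, and 1 member, Pdgfrb, had an unadjusted p under 0.05 (difference 0.78, adjusted p = 0.712, edgeR).

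Dpp4, an ectopeptidase also known from epithelia and glands, was the member that moved most with the salivary markers. In the 16 mice with over 1000 CPM of these markers it ranged from 10.04 to 61.1 CPM (median 23.9), and in the other 15 mice from 5.28 to 16.5 CPM (median 8.73). Over the 31 mice, Pearson's r of log2 Dpp4 with the log2 marker sum was 0.77 and Spearman's rho 0.75, as a description over mice that share treatments and library depth. The other members had an r of between -0.60 (Pdgfrb) and 0.32 (Ly6a), and that of Thy1 was -0.54. The 3 mice at 6d post-Col (10U), at 5.62 to 9.69 CPM of Dpp4, are among the 15. Of the Col vehicle mice they were compared with, replicate 1 had 68.4 CPM of salivary markers and 12.1 CPM of Dpp4, whereas replicates 2 and 3 had 52973 and 19036 CPM of the markers and 19.3 and 22.9 CPM of Dpp4.

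**Figure D3:**
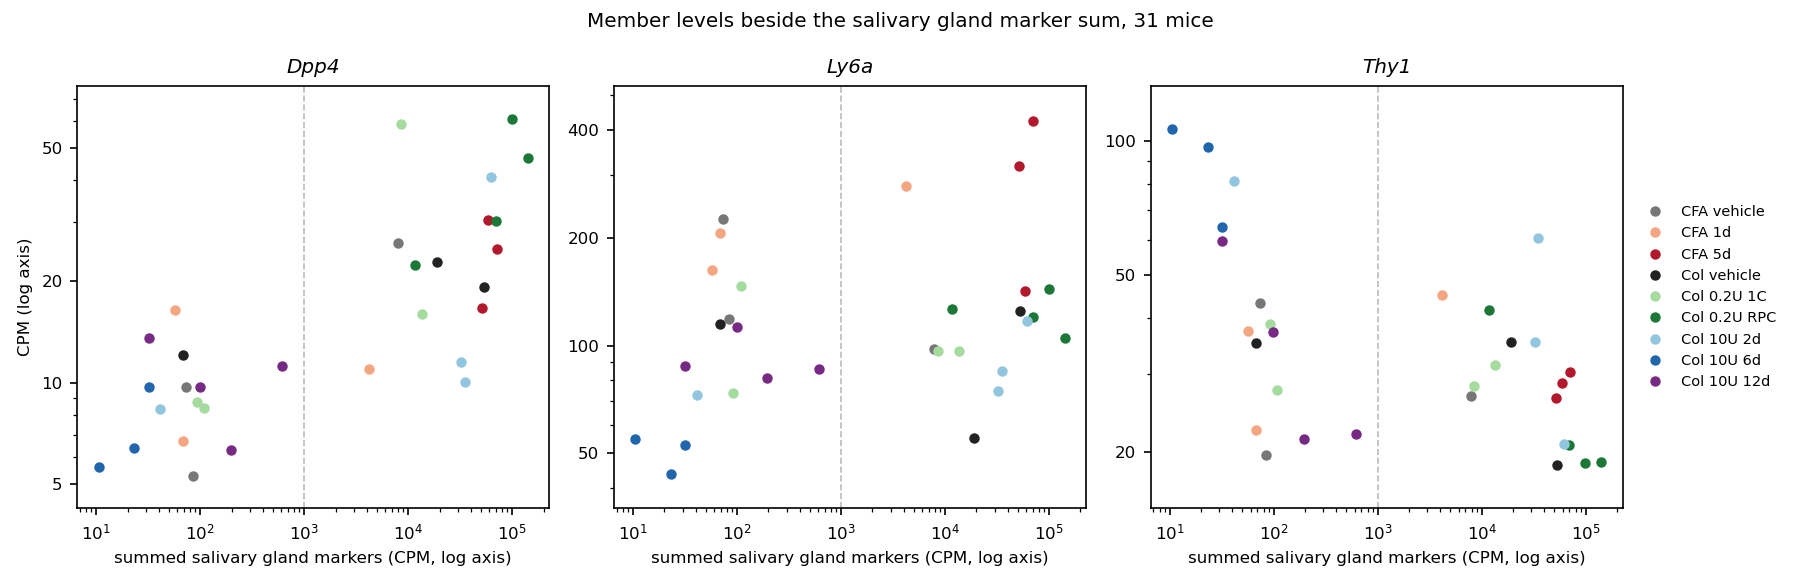
CPM of Dpp4, Ly6a and Thy1 against the summed CPM of 8 salivary gland markers in 31 mice, both on log axes, with 1 point per mouse by group. Dpp4 goes up with the salivary markers (r = 0.77), whereas Thy1 (r = -0.54) is highest where they are lowest.

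Other genes of fibroblasts were set beside the members at 6d post-Col (10U). At that time 27.3% of all tested genes were called in either direction. Of 10 genes listed for activated, matrix-producing fibroblasts, 9 rose and 0 fell. Their median log2 fold change was 3.14, that of all tested genes being 0.01. Which cells gave these values was not tested. Tnc, an adhesion-modulating matrix protein of injury (4.68), Cthrc1 (4.51) and Postn (4.09) rose most. These genes summed to 24851, 24735 and 14132 CPM at 6d and to 5512, 824 and 4559 CPM in vehicle mice. The members did not follow as a set: their median log2 fold change was 0.06. Of 20 further fibroblast and FAP genes, 4 rose (Cd248, Col15a1, Fbn1 and Mfap5) and 4 fell (Clec3b, Entpd2, Gsn and Hsd11b1), with a median of 0.01. Mfap5, a microfibril protein, changed by 2.17 and Gsn, the actin-severing gelsolin, by -2.58 on the log2 scale.

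Partners and relatives of the members also moved at 6d. Of 5 PDGF ligands and related genes, Pdgfc (1.08, adjusted p = 0.0301, edgeR) and the receptor-like Pdgfrl (1.46, adjusted p = 0.0337, edgeR) rose and none fell, while neither receptor was called. Of 6 tested prolyl peptidases related in activity to Dpp4 and Fap, Prcp (1.16) and Prep (0.89) rose and Dpp9 fell by 0.78. Of 6 tested genes of the Ly6 family, Ly6d (-2.09) and Ly6c1 (-0.66) fell with Ly6a. Ly6h was at 0 CPM in all vehicle mice and between 0.459 and 1.59 CPM at 6d. It passed the count filter only through the 6d mice, so its call could only be higher and is no support for a rise. Of 6 adipogenic genes edgeR called 0 at 6d, with 1 at an unadjusted p under 0.05, and DESeq2 called 1 lower. Fabp4 was at -0.38 (adjusted p = 0.266, edgeR) and Adipoq at -1.40 (adjusted p = 0.0554, edgeR).

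Markers of other cell types, some of which carry these surface proteins, changed as well. Endothelial markers, for cells that share Cd34 and Ly6a, had 3 of 10 genes lower (Vwf, Tek and Esam) and 0 higher, and their sum was 924, 778 and 901 CPM at 6d against 1403, 1164 and 991 CPM in vehicle mice. Mural markers had 2 of 7 lower (Myh11 and Kcnj8), whereas Pdgfrb itself had a log2 fold change of 0.02. Of 4 tested T cell markers only Cd4 rose (2.47, adjusted p = 0.0224, edgeR), which macrophage-lineage cells can also carry, and Cd3e was between 0.167 and 0.385 CPM in the 3 mice in which Thy1 was at 64.05 to 106 CPM. Macrophage and leukocyte markers had 5 of 7 higher, among them Cd68 (3.38) and Emr1 (2.80), and 0 lower. Schwann cell markers had 3 of 4 lower, keratinocyte markers 4 of 5 lower, tendon markers 1 of 6 higher (Scx) and 2 lower, and myofiber markers 2 of 8 lower (Myh4 and Ckm). All 3 salivary markers that could be tested fell. Dcpp1 (0 to 0.0835 CPM at 6d) and Pip (0 to 0.167 CPM) passed the count filter only through vehicle mice, so their calls could only be lower. Amy1 (10.2 to 31.2 CPM at 6d) was not bound in this way. Of 6 proliferation genes only Cdk1 rose (2.04). The part of these cell types in the member values was not tested.

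At the other times few genes of these lists passed edgeR's test. At 2d post-Col (10U) only Vwf (-1.52) and Actn3 (-1.91) were called, at 12d only Krt1, which was lower, at 5d post-CFA only Krt5 (2.37) and Sox10 (2.55), and at 1d post-CFA, in 1C and in RPC none. DESeq2 called more, such as 7 of 8 myofiber markers lower at 2d and 6 of 6 keratinocyte markers higher in 1C. From 6d to 12d, edgeR called 26.4% of all tested genes. In that step all 6 proliferation genes, 4 of 7 macrophage and leukocyte markers and 3 of 10 activated fibroblast genes (Acta2, Tgfb1 and Timp1) fell, and 0 rose. Of the other lists, 4 of 10 endothelial, 3 of 7 mural, 2 of 4 Schwann cell and 2 of 6 tendon markers rose and 0 fell. Of 20 further fibroblast and FAP genes 3 rose (Clec3b, Entpd2 and Gsn) and 1 fell (Cd248). Among 6 tested Ly6 family genes 2 rose and 1 fell. Whether any of these lists goes with Ly6a or Thy1 was not tested.

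**Figure D4:**
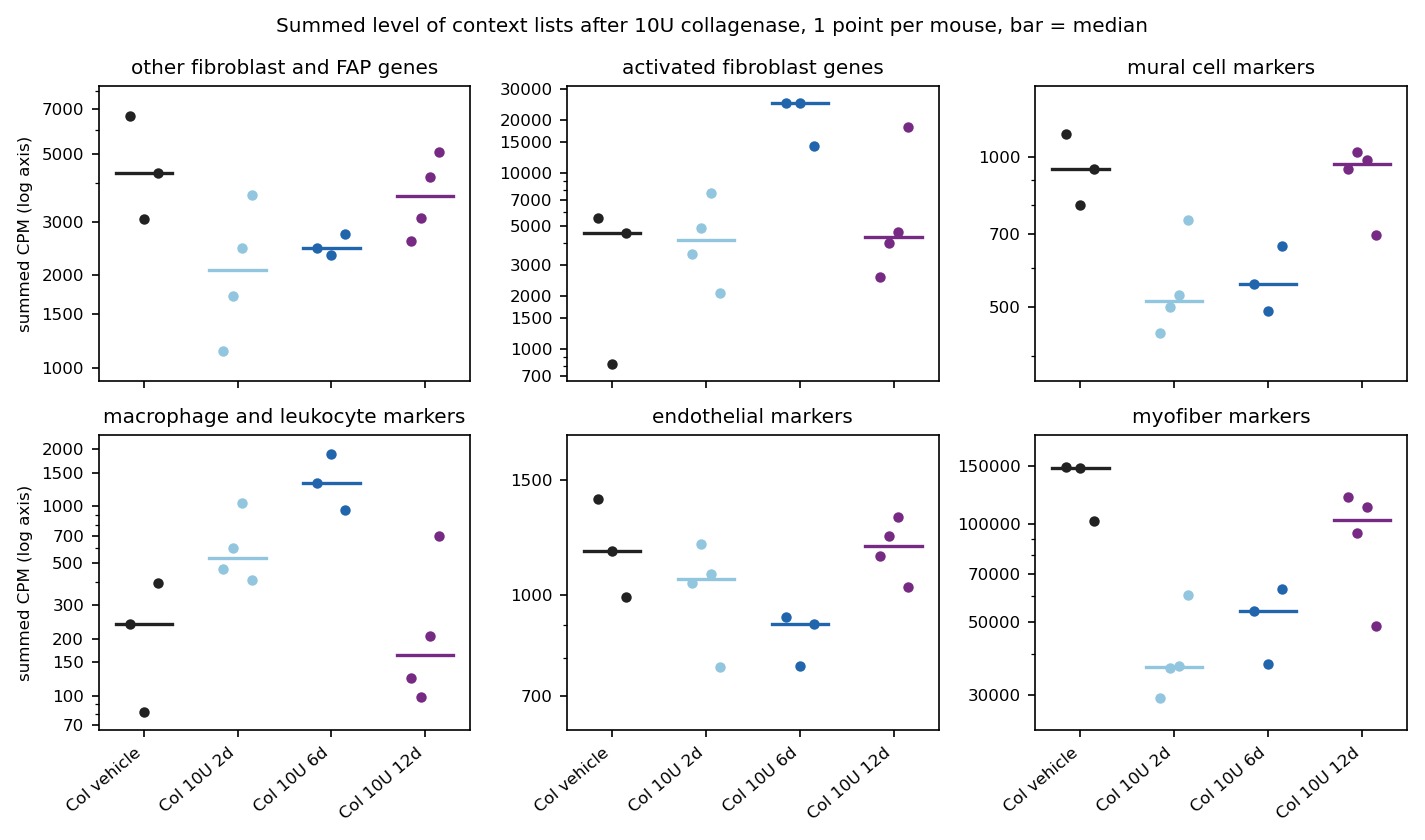
Summed TMM-scaled CPM (log axis) of 6 lists of marker genes (1 panel each) in the single mice of the Col vehicle group and of 2d, 6d and 12d post-Col (10U); bars are group medians. Activated fibroblast genes are highest at 6d post-Col (10U), between 14132 and 24851 CPM, while endothelial markers there are 778 to 924 CPM.

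Among themselves, the members varied together only in part. Of 36 pairs over 31 mice, 26 had a positive and 10 a negative Pearson's r of log2 CPM, with a median of 0.30. The most alike were Cd34 and Pi16 (0.66), and the least alike were Ly6a and Fap (-0.68). The PDGF receptors had an r of 0.52, whereas Dpp4 and Fap had -0.13. These values describe mice that share treatments and scaling.

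**Figure D5:**
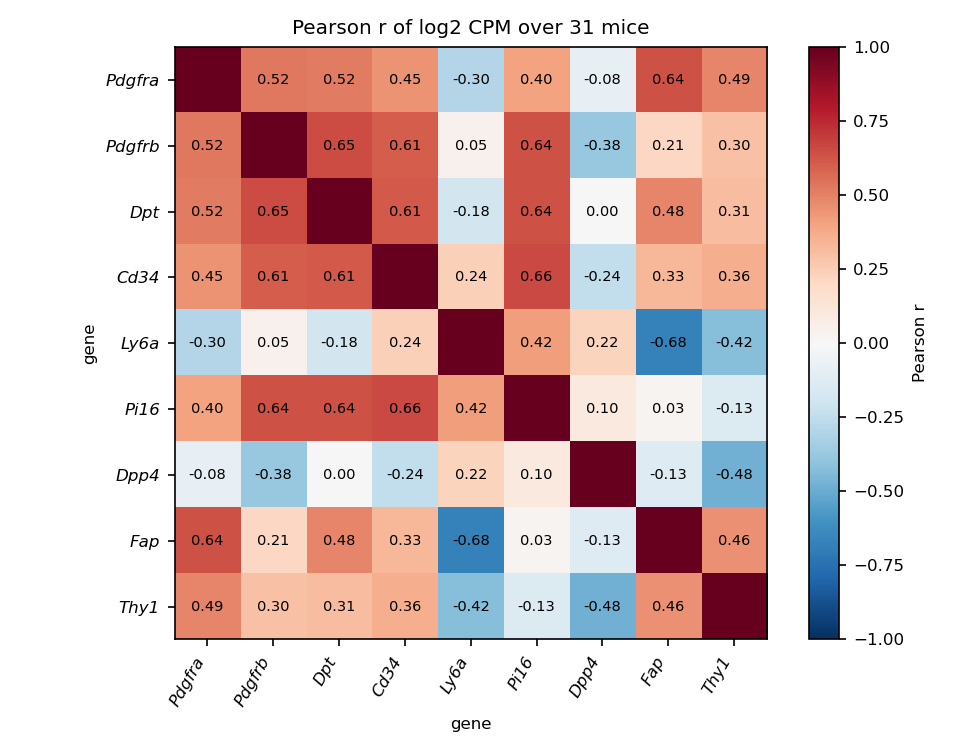
Pearson's r of log2 CPM between each pair of the 9 genes over 31 mice, as a colour scale from -1 to 1. Pdgfra, Pdgfrb, Dpt, Cd34, Pi16 and Fap are all positive with each other, and Ly6a with Fap is the most negative pair (-0.68).

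Outside the list, other genes followed single members more closely over the 31 mice. Of 13497 genes with a mean over 1 CPM, those most like Pdgfra were Lrp1 (r = 0.93), Kirrel (0.88) and Svep1 (0.88), and those most like Fap were Col16a1, Cd109 and Edil3 (0.95 each). Pdgfrb was most like Heyl (0.91), Ntn3 (0.84) and Fgd1 (0.82). Dpt was most like Ndn (0.91), Itm2a (0.90) and Islr (0.90), and Pi16 most like Clec3b (0.90), Serping1 (0.84) and Smoc2 (0.83). Cd34, with Ndn (0.76), Rnase4 (0.74) and Dennd5a (0.70), had the weakest likeness. Ly6a was most like Ifi35 (0.87), a gene named for its induction by interferon, Znfx1 (0.82) and Atg4b (0.81). Thy1 was most like Sepn1 (0.91), Layn (0.90) and Hexa (0.90). Dpp4 was most like 1700019D03Rik (0.90), Slc5a9 (0.90) and Rab3d (0.89), the last being a small GTPase of secretory granules. These are the highest of many values and carry no test.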

How the data were processed

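MM from 31 mice was sequenced by the authors from stranded poly(A) libraries (single-end, 50 bases). They deposited raw counts, 1 table per mouse on gene symbols, and normalized nothing in these tables. The submitters' processing notes name bcl2fastq, TopHat2, HTSeq and build mm9, without versions; whether the deposited counts used the strand is not given in the sources used here. Of the 22609 symbols, 21627 had a gene model in GENCODE vM1. Closing lines for reads on no gene were left out of totals. They are written in another form in the 9 CFA tables than in the 22 Col tables. Reads on no feature were 6.69 to 12.1% against 10.7 to 22.5%, so counting may differ between the experiments. Within the Col tables, ambiguous reads, which fit several genes, were 0.559 to 0.703% in 10U mice and 0.147 to 0.198% in Col vehicle mice. In 0.2U mice they were 0.125 to 0.259%. Counting may thus also differ between 10U and Col vehicle mice, and its part in those comparisons was not tested. Groups come from the sample titles; where these say 2d and 12d post-Col (10U), the paper gives 1d and 14d.

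The test was edgeR 4.0.16's quasi-likelihood test in R 4.3.3, with TMM, on the libraries of a comparison and over genes that reached 10 counts in 3 or more of them. Adjustment (Benjamini-Hochberg) was over all tested genes, and a gene was called at an adjusted p under 0.05. SE was taken from the fold change and F. CPM per mouse were scaled by TMM over 31 libraries, and correlations used log2(CPM + 0.5). Alternatives were DESeq2 1.42.0 and its size factors, no low-count filter, 1 fit over 31 libraries, a replicate block, pooled vehicle groups and each mouse left out; a salivary score as covariate and a limit of 1000 CPM of salivary markers were added after seeing the data. P-values rest on the spread between single mice. The members and lists were chosen with earlier results of these data known. All 9 members are named in each comparison, and of each list up to 3 called genes with the largest change at 6d post-Col (10U), or otherwise its 2 most abundant genes; names beyond these complete a count and were chosen after their values were seen.

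Replicate numbers are those of the titles and belong to different mice. Same-numbered mice deviated together in all 3 pairs for 1d post-CFA with CFA vehicle (r = 0.107, 0.265 and 0.533) and for the vehicle groups (0.253, 0.103 and 0.652), where the block changed no member's call. The edgeR test was tried on simulated counts first.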

Additional observations from a re-analysis of the deposited data

Results flagged for a closer look

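In groups of 4 mice, 5 of 36 tests over members and groups found 1 mouse far from the others, where chance gives about 5% of groups. Dpp4 was at 58.8 CPM in replicate 1 of the 1C group against 8.42 to 16.0 CPM in the other 3 mice, and Pdgfrb was at 71.4 CPM in that same mouse against 112 to 115 CPM. Salivary markers summed to 8487 CPM there, and to 13599 CPM in another mouse of that group. Dpp4 was also at 40.8 CPM in replicate 4 at 2d post-Col (10U) against 8.34 to 11.6 CPM, with the highest salivary sum of its group (62069 CPM). Fap was at 85.3 CPM in replicate 4 at 12d post-Col (10U) against 25.5 to 35.5 CPM; its activated fibroblast genes summed to 18096 CPM against 2546 to 4621 CPM. Thy1 was at 41.8 CPM in replicate 1 of the RPC group against 19.0 to 20.7 CPM, in the mouse with the lowest salivary sum of that group (11715 CPM).

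Changes at 5d post-CFA and 6d post-Col (10U) differed in the interaction test for Ly6a (2.05 on the log2 scale) and Thy1 (-1.56). What lies behind these values was not tested.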

How the results depend on the processing

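The 24 log2 fold changes of members with an unadjusted p under 0.05 (edgeR) were followed through 349 alternative values. Of these, 249 kept the direction and side of the threshold, 32 passed it newly, 64 no longer passed and 4 reversed. Being picked for a low p, they do not describe how stable the other changes of members were. All 4 reversals came with the salivary covariate: Dpp4 at 12d post-Col (0.0015), Dpp4 at 5d against 1d post-CFA (-0.25), Cd34 at 6d against 2d (-0.051) and the Dpp4 interaction (-0.014). Called members at 2d post-Col were 2 with DESeq2, beside 23.1% of all genes, and 2 with the covariate, beside 31%. They were also 2 with 1 fit over 31 libraries, beside 2394 genes higher and 2549 lower of 15526. The replicate block (2317 and 2183 of 14373 genes) and pooled vehicle groups (2596 and 2447 of 14663) gave 2 as well. With single mice left out they were 0 to 3, the 3 beside 36.3% of all genes. At 6d called members were 0 with the covariate, beside 21.7% of all genes, and 0 to 3 with mice left out. With the block they were 2 (Dpp4 and Thy1), beside 840 genes higher and 633 lower of 14281. At 5d post-CFA mice left out gave 0 to 1, the 1 being Dpp4 without CFA vehicle replicate 3, beside 15.6% of all genes. For 5d against 1d post-CFA the count was 2 with DESeq2, beside 10.5% of all genes. With mice left out the count was 0 to 1, the 1 beside 3.28% (Pdgfra) or 9.63% (Dpp4) of all genes. For 6d against 2d it was 5 with DESeq2, 1 without the filter, 4 with the block, 0 with the covariate, 1 under 1000 CPM (Dpt, against 1 mouse at 2d assumed to vary like the others) and 0 to 5 with mice left out. For 12d against 6d it was 1 in the 31-library fit, 1 with the covariate and 3 with the block. With mice left out it was 0 to 4, the 4 beside 54.2% of all genes. Between vehicle groups it was 1 under 1000 CPM (Fap, with 1 Col vehicle mouse). For the later interaction it was 1 with DESeq2's size factors, without the filter, in the 31-library fit and with the block (Dpp4), 0 with the covariate and 0 to 2 with mice left out. The replicate block gave 0 in the other comparisons. For 6d against 2d, 8.73% of all genes were called in the main fit and 2.4% with the covariate. Without 2d replicate 4, where 5 members were called, that share was 28.8%. Counts given without such a share describe the setting and are no result about the members. Apart from the covariate, whose construction removes variation shared with salivary markers, the cause was not tested. Every member had 108 counts or more in each mouse, and what limited the calls was not tested.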
